A study of Sus scrofa with 24 samples.

Results

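Among the transcripts assembled from pig back muscle, 1085 lay at loci that the authors' table classes as new and carried no gene symbol. They were chosen by those 2 columns alone, with no use of their levels, and they made up 4.90% of the 22154 transcripts listed. The other rows were 680 transcripts at new loci that do have a symbol, 7985 isoforms that the assembly added to annotated loci and 12404 reference transcripts. Muscle came from the longissimus dorsi of 24 crossbred pigs. Of these, 12 were labelled high IMF and 12 low IMF, where IMF is intramuscular fat, the fat stored inside the muscle. All were F1 offspring of Duroc boars and Luchuan sows, drawn from 265 such animals kept on 1 farm and diet, slaughtered at 210 ± 6 days of age and sampled 25 minutes after death. The labels state no drug or gene alteration, and sex, litter and the measured fat content of each animal are not used here. Each library is 1 animal, named here by its group and a number in accession order. The animal identifiers begin with DLC1512 or DLC1601, which gives 2 sets of 6 high and 6 low IMF animals each. Within a group, 3 pairs of animals share the first 9 identifier digits; the labels explain neither code.

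Transcript assemblers join aligned reads into exon chains and report chains that match no annotated gene as new loci. Such transcripts can be long non-coding RNAs, which are spliced and polyadenylated like messenger RNA but encode no long protein. They can also be precursors of microRNAs, transcripts of the strand opposite a gene, unannotated ends of known genes, or stretches of intron and repeat. In skeletal muscle, several microRNAs that promote or maintain the muscle state are cut from longer host transcripts of this kind.

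Levels were given as FPKM, the number of fragments scaled to transcript length and library size, for each transcript and animal. Every listed transcript had a level above 0 in 19 or more libraries, so those detected in fewer animals lie outside these results. The depth of a library is not stated and was estimated from the steps between low values, which gave 32.9 to 40.8 M reads (M for mega) on a relative scale. The median length of the unannotated transcripts was 994 bases. On the same relative scale, 0.5 FPKM at that length would stand for 16.3 to 20.3 reads of 150 bases. The share of all FPKM taken by the 10 most abundant genes was lowest in low IMF animal 10 (18.5%), followed by 20.2% in animal 7 of the high IMF group. All 10 muscle fibre markers looked for were listed, with a summed level of 23952 to 64066 FPKM. All 13 adipocyte markers were listed too, and their sum was 187 to 380 FPKM in high and 117 to 257 FPKM in low IMF animals, with the higher mean in high IMF for each of the 13. Sums of other marker lists differed too, with no test. Blood cell markers summed to 76.6 ± 56.8 FPKM in high and 40.9 ± 23.7 FPKM in low IMF (SD, n = 12 each; 3 of 3 listed higher). Most of that sum was HBB, at 74.9 ± 55.6 and 40.1 ± 23.2 FPKM. Schwann cell and nerve markers summed to 29.7 ± 8.38 and 44.3 ± 15.5 FPKM (0 of 4 higher). Keratinocyte markers summed to 1.36 ± 0.545 and 2.32 ± 1.19 FPKM (0 of 2 higher), and muscle fibre markers to 46400 ± 8855 and 52590 ± 9132 FPKM (3 of 10 higher).

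The unannotated transcripts were short, simple and low. Their median length was 994 bases (quartiles 532 and 1910), against 3256 bases for reference transcripts. A single exon made up 547 of them (50.4%), against 3.18% of reference transcripts and 38.5% of the other transcripts at new loci. A further 246 had 2 exons, 166 had 3 and 126 had more, up to 13. No strand was given for 426, all of them single-exon, while 309 were placed on the plus and 350 on the minus strand. Their median mean level was 0.763 FPKM, against 1.97 FPKM for reference transcripts, and 29 (2.67%) reached 10 FPKM, against 15.8% of reference transcripts. Spliced members were the more abundant: the median was 0.888 FPKM for the 538 with several exons and 0.673 FPKM for the 547 with 1. Among all the unannotated transcripts, 822 (75.8%) were above 0 in all 24 libraries, close to the 79.4% of reference transcripts. Both shares are of a list that holds only transcripts above 0 in 19 or more libraries, so they do not show how often low transcripts are absent. The median coefficient of variation of FPKM within IMF groups was 52.6%, against 43.7% for reference transcripts and 57.0% for added isoforms. On the log2(FPKM + 1) scale used for testing the order was the other way, with a median SD of 0.328 against 0.381 for reference transcripts. These values describe the deposited list and carry no test.

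**Figure D1:**
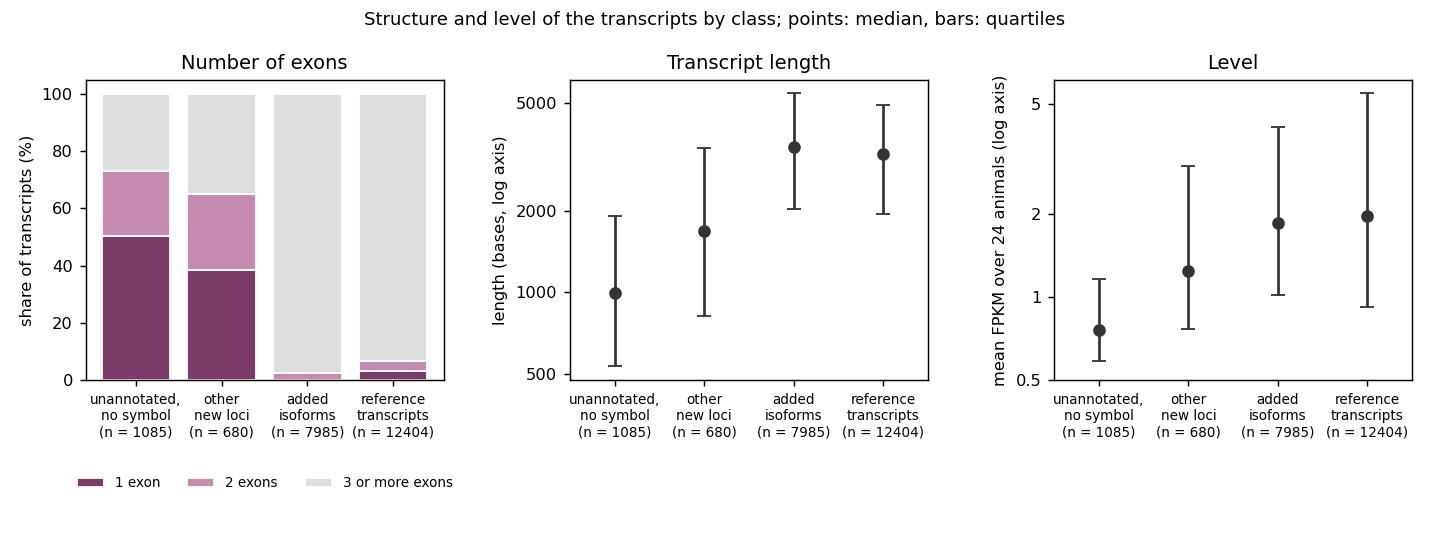
Exon number (stacked shares of transcripts, in percent), length (bases, log axis) and mean FPKM over 24 animals (log axis) for the 4 classes of listed transcripts; points are medians and bars run from the lower to the upper quartile. The 1085 unannotated transcripts had the largest single-exon share (50.4%), the shortest median length (994 bases) and the lowest median level (0.763 FPKM).

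The extremes of structure were few. MSTRG.4926.1 was the longest, a single exon of 16422 bases on chromosome 14 (111652950 to 111669371). It lay 431 bases from the listed HIF1AN, which encodes the hydroxylase that inhibits the hypoxia factor HIF1A, and overlapped the RefSeq span of HIF1AN. It was followed by MSTRG.6551.1 with 14687 bases and 1 exon, MSTRG.5355.1 with 11429 bases and 2 exons, and MSTRG.6244.1 and MSTRG.9673.1 with 10477 and 10413 bases in 1 exon. MSTRG.15460.1, on an unplaced scaffold, had the most exons, with 13 in 5193 bases, and MSTRG.6738.1 on chromosome 18 had 9. All 7 lay between 0.563 and 1.81 FPKM on average.

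The 1085 transcripts belonged to 995 loci, and 918 of these held a single one. The locus with most, MSTRG.14389, held 5. Chromosome 1 carried 96, chromosome 6 carried 89 and chromosome 3 carried 83, which are also chromosomes with many listed rows. As a share of all listed rows, they were most frequent among the placed autosomes on chromosome 8 (8.10%) and least on chromosome 2 (3.22%). The unplaced scaffolds, pieces of the assembly that have no position on a chromosome, held 47, or 11.8% of their rows. The Y chromosome held 3 of 16 rows and the mitochondrial genome 3 of 30.

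A letter in the table gives each transcript's place relative to the reference annotation, in the code of the assembly comparison tool. By that code 508 lay between genes, 187 within an intron, 168 overlapped an exon on the opposite strand, and 160 were single exons close to the end of a gene (possible run-on). The other letters covered 62: 30 held a reference gene inside their own intron, 24 had another overlap on the same strand, and 8 were single exons reaching from an exon into an intron. The letter and the exon number are not independent: the run-on letter takes single exons only, and the opposite-strand letter needs a strand, which the table gives for every spliced transcript but not for 426 of the single-exon ones. Accordingly 165 of the 168 opposite-strand and 0 of the 160 run-on transcripts were spliced. The opposite-strand group also had the highest median level of these 4 large groups, at 0.993 FPKM, against 0.694 FPKM between genes, 0.714 FPKM within introns and 0.733 FPKM for run-on transcripts. Per the labels the library kit is a standard NEBNext kit, and the labels do not say whether it kept strand.

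By start and end, 241 overlapped a listed gene with a symbol. In 164 of these the gene was on the opposite strand, in 49 on the same strand, and in 28 the strand of the transcript was unknown. A further 269 lay within 1000 bases of such a gene, 211 from there to 10000 bases, 204 from there to 100000 bases and 141 farther away. The remaining 19 were on scaffolds with no listed symbol. Single-exon transcripts made up 171 of the 269 within 1000 bases and 154 of the 211 from there to 10000 bases. Their share was smallest among those that overlapped a gene, 44 of 241. The median distance was 1321 bases.

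**Figure D2:**
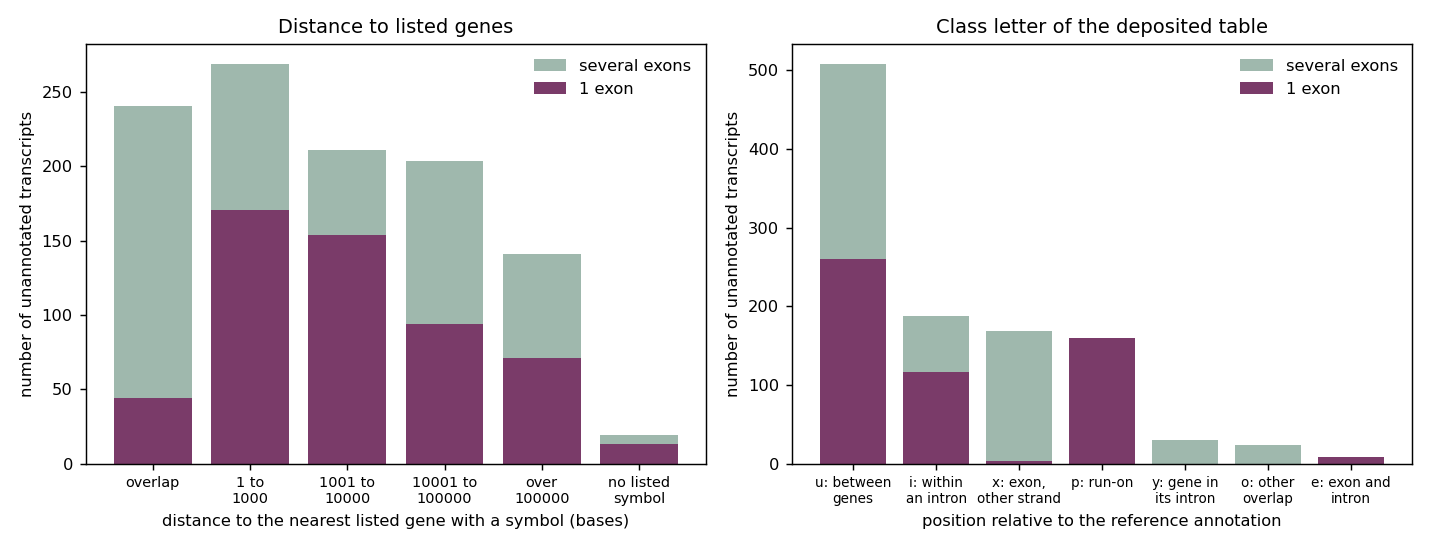
Number of unannotated transcripts (vertical axes) by distance in bases to the nearest listed gene with a symbol (left) and by the class letter of the deposited table (right); the dark part of each bar counts those with 1 exon. Transcripts within 1000 bases of a gene were mostly single-exon (171 of 269), as were those from there to 10000 bases (154 of 211). Exon number by letter is set in part by how the letters are defined.

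Many of these places hold a gene in another annotation of the same genome build. Of the 1038 transcripts on chromosomes that the RefSeq gene table covers, 738 (71.1%) overlapped the span of a RefSeq gene on Sscrofa11.1. That gene was protein coding for 463 and a long non-coding RNA for 254. The 254 fell on 197 RefSeq long non-coding RNA genes, and 206 of them had at least 90% of their span inside the gene. Even among transcripts with the between-genes letter, 284 of 477 (59.5%) overlapped a RefSeq gene. The RefSeq table has no strand column, so the overlap says nothing of which strand was shared, and a span includes introns.

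Some of the transcripts span genes of muscle microRNAs. RefSeq lists 315 microRNA genes, and 5 of them lay inside the span of 7 unannotated transcripts at 4 loci, which were picked out after the RefSeq table was seen. MIR206 and MIR133B, a pair of microRNAs expressed in skeletal muscle and known to promote muscle differentiation, lay in the locus MSTRG.13487 on chromosome 7. Its transcript MSTRG.13487.1 ran on the plus strand from 45967071 to 45983961 in 2 exons and held both. MSTRG.13487.2 shared that start and ended at base 45976372, the same base at which RefSeq ends MIR206. In mouse and human this region carries linc-MD1, a muscle long non-coding RNA that hosts a microRNA and affects the timing of differentiation.

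At that locus MSTRG.13487.1 was the main form, with a lowest, median and highest level of 7.18, 9.66 and 16.4 FPKM in high IMF and of 5.78, 11.7 and 25.3 FPKM in low IMF animals. The levels of the groups overlapped, and the highest values were in low IMF animals 7 and 12. MSTRG.13487.2 ran from 0.953 to 9.31 FPKM in high and from 1.06 to 11.13 FPKM in low IMF, again with overlap. MSTRG.13487.3 was near 0 in most animals, with medians of 0.051 and 0.112 FPKM, but reached 10.8 FPKM in low IMF animal 3. That animal had the lowest levels of the other forms in its group, 5.78 and 1.06 FPKM. How the assembly divides reads among forms of 1 locus bears on each of these values.

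The other microRNA loci were lower. MIR133A-2, of the muscle-enriched miR-133 family, lay inside MSTRG.12708.4 and MSTRG.12708.5 on chromosome 6, transcripts on the strand opposite to MIB1, which encodes a ubiquitin ligase of Notch signalling. MSTRG.12708.5 had a mean of 2.34 ± 1.45 FPKM in high and 3.26 ± 1.66 FPKM in low IMF (SD, n = 12 each), and MSTRG.12708.4 had 1.22 ± 0.552 and 0.891 ± 0.656 FPKM. The forms of this locus thus had their higher means in opposite groups, and neither difference passed the test (limma, Benjamini-Hochberg adjusted p = 0.833 and 0.852). MIR125B-1, of the miR-125 family, lay inside MSTRG.14928.1, which was even among animals at 0.851 to 1.88 FPKM in high and 0.687 to 2.03 FPKM in low IMF. MSTRG.5661.1, which spans MIR4334, was at most 3.69 FPKM in 22 animals but 28.2 FPKM in high IMF animal 3 and 29.4 FPKM in low IMF animal 12.

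Others ended close to microRNA genes without holding them. The second longest, MSTRG.6551.1 on chromosome 17, lay 367 bases from MIR133A-1. MSTRG.10874.1 on chromosome 5 lay 3 bases from MIRLET7I, a member of the let-7 family, which restrains growth and stem cell programs. Its levels are given below with the comparison of IMF groups.

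The summed level of the 1085 transcripts was 0.992% to 2.18% of all FPKM per library. It was 1.62 ± 0.317% in high and 1.49 ± 0.406% in low IMF (SD, n = 12 each), a difference that did not pass (two-sided permutation test, p = 0.389, adjusted over 2 tests 0.389). With 1 animal per shared 9 identifier digits it was 1.57 ± 0.293% in 11 high and 1.54 ± 0.416% in 10 low IMF animals (permutation p = 0.829). The number of them above 0 per library was 1064 ± 7.19 and 1059 ± 9.02 (permutation p = 0.148, adjusted 0.295). Abundance was concentrated: the 10 of highest mean FPKM held 73.3% of the summed level, from 61.6% to 81.0% by library. Of these 10, 4 were shorter than 300 bases.

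The most abundant was MSTRG.14628.1, spliced from 2 exons into 281 bases on chromosome 9 (4650372 to 4702191, minus strand), where RefSeq has the pseudogene LOC110255369. Its lowest, median and highest levels were 831, 1371 and 2642 FPKM in high and 705, 1243 and 2243 FPKM in low IMF. MSTRG.15726.8 and MSTRG.15726.3, on the mitochondrial genome over ND5, which encodes a subunit of respiratory complex I, had means of 1236 and 449 FPKM. MSTRG.4206.1, 200 bases within SPOCK3 on chromosome 14, had a mean of 410 FPKM. In all 4 the levels of the IMF groups overlapped.

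The next in order were MSTRG.13095.1 on chromosome 7 (331 FPKM), MSTRG.3477.1 on chromosome 13 (209 FPKM) and MSTRG.15377.1 on an unplaced scaffold (99.1 FPKM). MSTRG.579.1 (92.4 FPKM) lay 2 bases from the listed CAPN3, which encodes the muscle protease calpain 3, and overlapped the RefSeq span of CAPN3. It was the most even of the 10, at 71.0 to 128 FPKM in high and 67.3 to 121 FPKM in low IMF. MSTRG.15690.1 (80.4 FPKM) lay on a scaffold 229 bases from the listed gene for the small RNA of the large ribosomal subunit. MSTRG.13271.1 (69.3 FPKM), with 5 exons, lay 3629 bases from HSPA1B, which encodes a heat shock protein, and overlapped its relative HSPA1L in RefSeq. Limma called none of the 10 for IMF, with adjusted p from 0.859 to 0.995.

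**Figure D3:**
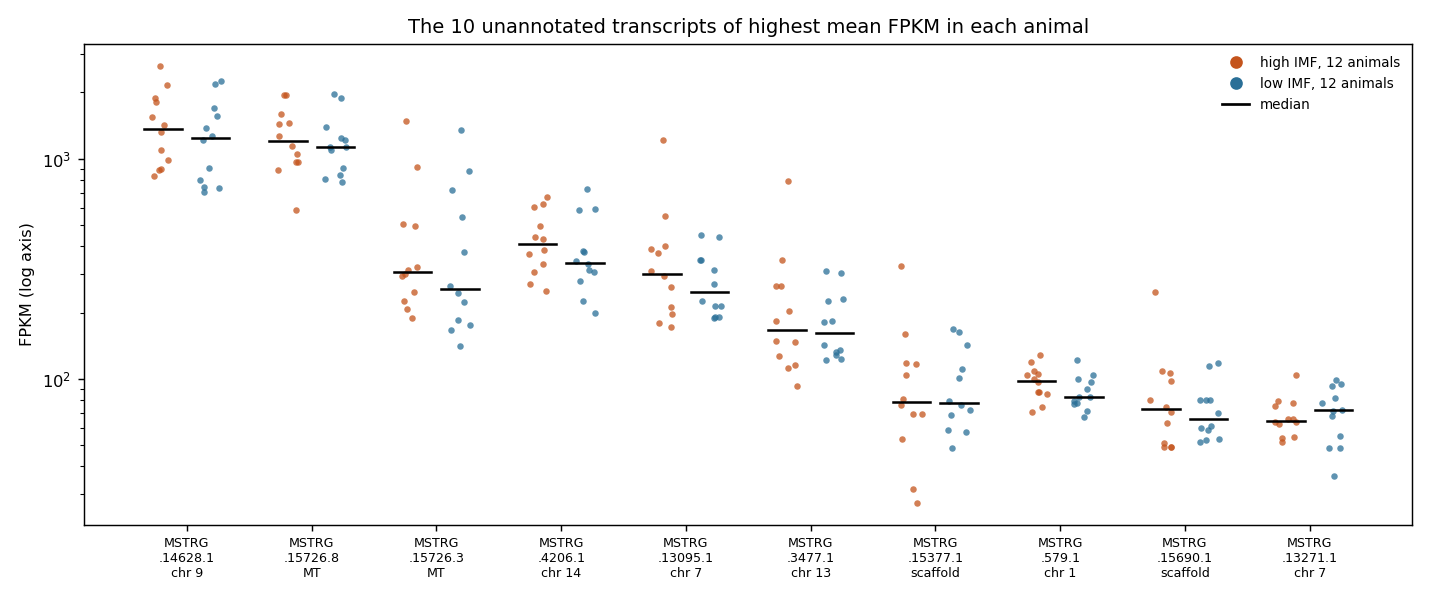
FPKM (log axis) of the 10 unannotated transcripts of highest mean level, 1 point per animal, high IMF in orange and low IMF in blue, with the group median as a line. The groups overlapped in all 10, and the single high point of MSTRG.13095.1, MSTRG.3477.1, MSTRG.15377.1 and MSTRG.15690.1 was the same animal, high IMF animal 6.

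Sets of these abundant transcripts moved together across animals although they lie on different chromosomes. All 45 pairs of the 10 were compared on log2(FPKM + 1), after the values had been seen, and 9 pairs passed in both Pearson's and Spearman's correlation (permutation, adjusted over the 45). One set was MSTRG.13095.1, MSTRG.3477.1, MSTRG.15377.1 and MSTRG.15690.1, with r of 0.79 to 0.98 and rho of 0.83 to 0.96 over its 6 pairs (adjusted p = 5e-05 for each, from the smallest p that the permutations can give). Each of the 4 was highest in high IMF animal 6, where MSTRG.13095.1 reached 1211 FPKM and MSTRG.15377.1 reached 327 FPKM. Without that animal r was 0.70 to 0.96, and without the 2 animals farthest from the median it was 0.70 to 0.96 as well. Within the identifier sets the lowest r was 0.92 in set DLC1512 and 0.77 in set DLC1601.

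A transcript of the Y chromosome followed this first set. MSTRG.16345.1, 269 bases in 1 exon with a mean of 55.9 FPKM, correlated with MSTRG.15377.1 at r = 0.98 and rho = 0.98 (permutation p = 1e-05 for both, also after adjustment over 4 pairs), and at r = 0.97 without high IMF animal 6. Its r with the other 3 was 0.79 to 0.90, and 0.70 to 0.87 without that animal. MSTRG.16345.1 was chosen after its values were seen, and the adjustment covers these 4 pairs alone. The p therefore gives no independent support. The ribosomal RNA row beside MSTRG.15690.1 moved with the set too: its r with the 4 was 0.66 to 0.85 (permutation, adjusted p at most 0.00028 for r and 0.00087 for rho), and it was highest, at 36.8 FPKM, in the same animal. Without that animal r was 0.56 to 0.83. Whether reads of ribosomal RNA enter these values was not tested.

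The other set was MSTRG.14628.1, MSTRG.4206.1 and the mitochondrial MSTRG.15726.8. Its 3 pairs had r of 0.78 to 0.92 and rho of 0.84 to 0.93 (permutation, adjusted p = 5e-05 for each), and r of 0.76 to 0.90 without the 2 animals farthest from the median. All 3 also followed ND1, another mitochondrial gene of complex I, with r of 0.89 for MSTRG.14628.1, 0.98 for MSTRG.4206.1 and 0.78 for MSTRG.15726.8 (permutation p = 1e-05 each, adjusted 1.4e-05). With the listed ND5, MSTRG.15726.8 had r = 0.29 and rho = 0.83, and r = 0.79 without the 2 animals farthest from the median. The other mitochondrial transcript of the 10, MSTRG.15726.3, did not join the set. Its r was 0.42 with MSTRG.14628.1, 0.40 with MSTRG.4206.1 and 0.28 with MSTRG.15726.8, and none passed. MSTRG.14628.1 and MSTRG.4206.1 lie on nuclear chromosomes, and whether they share sequence with the mitochondrial genome was not tested. Between the 2 sets r was -0.23 to 0.02, and none of the 12 pairs passed (permutation, smallest adjusted p = 0.657). The sets were drawn from the pairs that passed, so a passing pair between them would have joined them.

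Comparing high with low IMF animals asks which muscle transcripts go with a fatter or leaner muscle. None of the unannotated transcripts passed. With limma on log2(FPKM + 1), 995 of the 1085 reached the mean of 0.5 FPKM set for testing and 90 did not. Of these 995, 0 were called at an adjusted p under 0.05, beside 0.0187% of all 21405 transcripts tested, and the smallest adjusted p was 0.352. At an unadjusted p under 0.05, 36 (3.62%) were higher and 15 (1.51%) lower in high IMF, beside 5.25% higher and 1.09% lower of all transcripts. The median log2 fold change was 0.02 for these transcripts and 0.07 for all. With trimmed-mean scaling (TMM) the counts were 19 higher and 36 lower, beside 2.79% and 2.25% of all transcripts, with medians of -0.02 and 0.00. With upper-quartile scaling they were 19 and 35, beside 2.89% and 2.1%, so the balance of directions rests on the scaling. The typical standard error was 0.135 on the log2 scale. In bulk tissue, fewer cells of a type and less RNA per cell cannot be told apart. The part in these values of the cell types whose marker sums are given above was not tested.

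**Figure D4:**
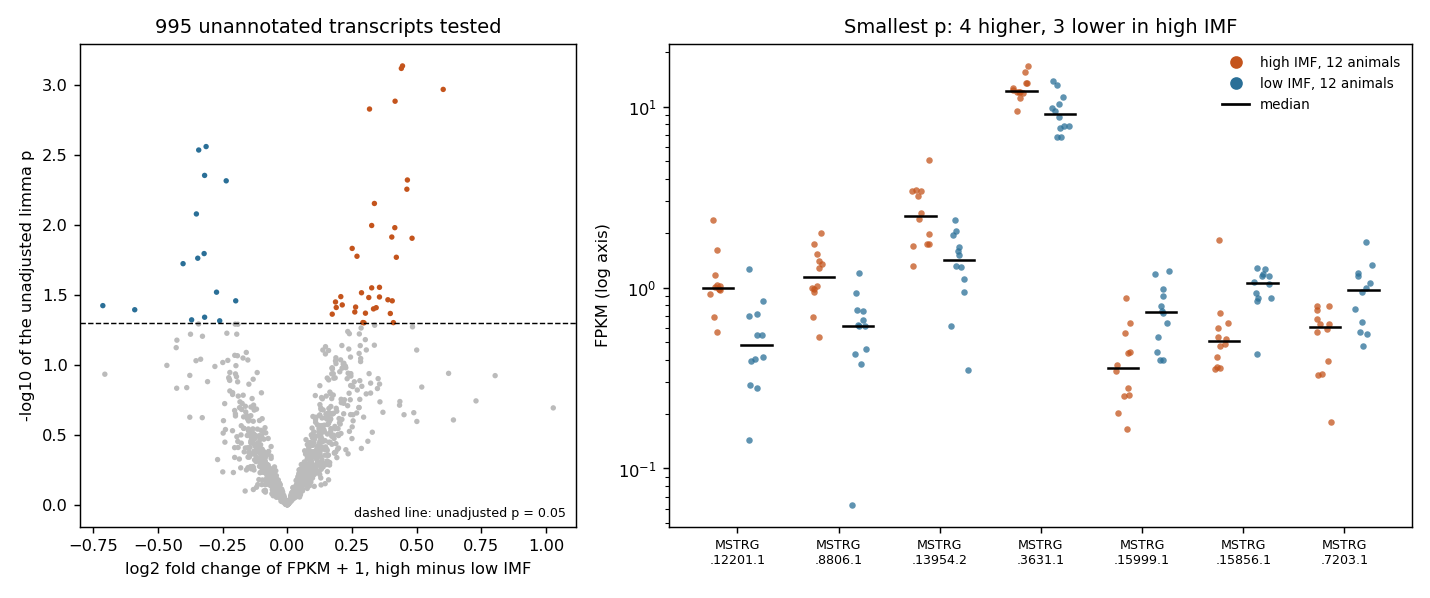
Left, log2 fold change of FPKM + 1 (high minus low IMF) against -log10 of the unadjusted limma p for the 995 unannotated transcripts tested, coloured where that p is under 0.05 (36 higher in orange, 15 lower in blue). Right, FPKM (log axis) in each animal for the 4 of smallest p among those higher and the 3 among those lower, with group medians; the groups overlapped in all 7.

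The transcripts of smallest p with the higher level in high IMF were of several kinds. MSTRG.12201.1, 4 exons on chromosome 6 (63685122 to 63688019, minus strand) at the RefSeq gene TMEM88B, had a lowest, median and highest level of 0.565, 0.995 and 2.36 FPKM in high and 0.145, 0.48 and 1.27 FPKM in low IMF. The low IMF median was exceeded by all 12 high IMF animals, while the groups overlapped. Its log2 fold change was 0.45 (SE 0.116, unadjusted p = 0.000731, limma adjusted p = 0.352), and it was 0.61 and 0.28 in sets DLC1512 and DLC1601. MSTRG.8806.1 on chromosome 3 (28813123 to 28816716) overlapped, on the opposite strand, a transcript listed under GLUL, the symbol of glutamine synthetase. The RefSeq gene of most overlap there was the long non-coding RNA LOC110259926. It was 1.21 ± 0.429 against 0.622 ± 0.287 FPKM (SD, n = 12 each; log2 fold change 0.44, limma adjusted p = 0.352), and the low IMF median was exceeded by 11 of 12 high IMF animals. What is listed as GLUL on chromosome 3 was 1.68 ± 0.874 FPKM in high and 1.04 ± 0.469 FPKM in low IMF. Across the 24 animals r between the pair was 0.21 (unadjusted permutation p = 0.318), and it was 0.34 without the 2 animals farthest from the median, 0.43 in set DLC1512 and 0.04 in set DLC1601.

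MSTRG.13954.2, spliced from 2 exons at a RefSeq long non-coding RNA gene on chromosome 7 (LOC110255293), had the largest estimate of these, 0.60 (SE 0.163, limma adjusted p = 0.367). It ran from 1.31 to 5.07 FPKM in high and from 0.352 to 2.37 FPKM in low IMF, and no low IMF animal reached the high IMF median of 2.49 FPKM. MSTRG.3631.1, 3 exons at the RefSeq long non-coding RNA LOC100511157 on chromosome 13, was far more abundant. It was 9.43, 12.3 and 16.8 FPKM (lowest, median, highest) in high and 6.76, 9.07 and 13.8 FPKM in low IMF, and the lowest high IMF value was above the low IMF median. Its log2 fold change was 0.42 (SE 0.115, limma adjusted p = 0.367).

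Next came MSTRG.16239.1 on the X chromosome, a single exon of 2225 bases at IDS, which encodes the lysosomal enzyme iduronate sulfatase. It was 0.866 ± 0.309 against 0.488 ± 0.169 FPKM (SD, n = 12 each), with every high IMF animal above the median of the other group and no low IMF animal above the high IMF median. The most abundant of these 8 was MSTRG.9470.1, 235 bases within an intron of GPN1, which encodes a GTPase needed for nuclear import of RNA polymerase II, at 19.5 to 28.8 FPKM in high and 9.49 to 27.1 FPKM in low IMF. Its difference was 0.74 in set DLC1512 and 0.19 in set DLC1601 on the log2 scale. MSTRG.5802.1 and MSTRG.1948.1, both at RefSeq long non-coding RNA genes, completed the 8, with limma adjusted p of 0.549 and 0.558. Of the 8, 5 overlapped such a gene, counting MSTRG.8806.1, as did 2 of the 8 described next and 254 of the 1038 on chromosomes that RefSeq covers.

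The transcripts of smallest p with the lower level in high IMF were all low in level. MSTRG.15999.1, a single exon of 533 bases on the X chromosome (58034456 to 58034988), was 0.164, 0.36 and 0.878 FPKM (lowest, median, highest) in high and 0.396, 0.733 and 1.24 FPKM in low IMF. All 12 low IMF animals lay above the high IMF median. Its log2 fold change was -0.31 (SE 0.0943, limma adjusted p = 0.459). MSTRG.15856.1, also on the X chromosome, 2 exons at a RefSeq long non-coding RNA gene, was 0.609 ± 0.403 against 1.01 ± 0.239 FPKM (SD, n = 12 each), with 11 of 12 high IMF animals below the low IMF median.

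MSTRG.7203.1 on chromosome 2 lay 233 bases from SF1, which encodes a splicing factor that binds the branch point. It was 0.18 to 0.79 FPKM in high and 0.474 to 1.79 FPKM in low IMF, and all 12 high IMF animals lay below the low IMF median of 0.967 FPKM. MSTRG.13401.1, at the RefSeq long non-coding RNA gene LOC110261680 on chromosome 7 and 3125 bases from BTBD9, had the smallest p of these transcripts in the authors' deposited table, 0.00039, with a fold of 1.21 (low over high) and q-values of 0.572, 0.331 and 0.174 of 3 kinds. It was 0.54 ± 0.147 against 0.82 ± 0.227 FPKM (SD, n = 12 each; limma log2 fold change -0.24, adjusted p = 0.518). MSTRG.10874.1, beside MIRLET7I, was 0.088, 0.594 and 1.29 FPKM (lowest, median, highest) in high and 0.382, 1.03 and 1.83 FPKM in low IMF (limma log2 fold change -0.35, SE 0.122, adjusted p = 0.572).

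MSTRG.5433.1 lay 1 base from the listed HOXD1, a homeobox gene of body patterning, and overlapped the RefSeq span of HOXD1. It was 1.57 ± 0.621 against 2.21 ± 0.537 FPKM (SD, n = 12 each). MSTRG.12154.1 and MSTRG.15593.1 completed the 8, with limma log2 fold changes of -0.32 and -0.40. Over the 8 the adjusted p was 0.459 to 0.687 and the mean level 0.574 to 1.89 FPKM. In the authors' deposited table a p under 0.05 stood beside 84 of the 1085 (7.74%), against 6.39% of all rows. By that table's fold, 50 of the 84 were lower and 34 higher in high IMF, and of all rows with such a p 564 were lower and 851 higher. None of the 1085 had a q-value under 0.05, of whichever kind, against 0.0226% of all rows for the third kind.

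By place, 10 of the 166 opposite-strand transcripts tested were higher in high IMF and 1 lower at an unadjusted p under 0.05, beside 5.25% and 1.09% of all transcripts tested. Between genes these were 20 and 9 of 452, within introns 4 and 3 of 166, and for run-on transcripts 2 and 2 of 151. The median log2 fold change was 0.05 for opposite-strand transcripts and 0.02 between genes. These are small counts without rescaling, and TMM scaling turned the balance over all unannotated transcripts, as given above. Differences between the letters were not tested.

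The identifier sets gave no call either. Between sets DLC1601 and DLC1512, with the IMF group as a term, 0 of 995 were called by limma, beside 0% of all transcripts, and 36 were higher and 24 lower at an unadjusted p under 0.05, beside 2.94% and 2.84% of all. The smallest p belonged to MSTRG.11029.1, a single exon of 3663 bases on chromosome 5 near CLEC12A, which encodes a receptor of myeloid cells, at 0.493 ± 0.335 FPKM in set DLC1512 and 0.999 ± 0.344 FPKM in set DLC1601 (SD, n = 12 each; limma log2 difference 0.44, adjusted p = 0.81). In the other direction it was MSTRG.8437.1, at the RefSeq gene FBXL18, with 5.58 ± 1.37 against 4.06 ± 0.913 FPKM (limma log2 difference -0.37, adjusted p = 0.81). The difference of the IMF effect between the sets was called for 0 of 995, beside 0.00467% of all transcripts, with 21 larger and 21 smaller in set DLC1601 at an unadjusted p under 0.05, beside 1.23% and 2.62% of all.

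A few transcripts were low in some animals and much higher in others. MSTRG.13215.1, spliced from 2 exons on chromosome 7 at HLA-B (SLA-2 in RefSeq), a class I gene of the pig's major histocompatibility complex, was at most 0.402 FPKM in 7 animals and 2.80 to 20.7 FPKM in 17, of which 10 were high and 7 low IMF. Class I genes, whose products present peptides to T cells, are among the most variable genes between individuals, and the part of allele differences in these values was not tested.

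MSTRG.7173.4 lay in the locus of NEAT1, the long non-coding RNA that builds nuclear paraspeckles, on chromosome 2. It was at most 0.056 FPKM in 9 animals and 1.19 to 19.6 FPKM in 15, of which 8 were high and 7 low IMF. It overlapped the listed NEAT1_2 on the same strand, and the part of how reads are divided between overlapping transcripts was not tested. MSTRG.15615.1, 289 bases on an unplaced scaffold, was at most 4.71 FPKM in 13 animals and 12.2 to 25.5 FPKM in 11, of which 6 were high and 5 low IMF. MSTRG.156.2, 3 exons on chromosome 1 with no listed gene symbol within 100000 bases, was at most 0.727 FPKM in 15 animals and 4.54 to 12.5 FPKM in 9. Of those 9 animals, 6 were high and 3 low IMF. None of these 4 was called for IMF (limma adjusted p from 0.866 to 0.999), with standard errors of 0.529 to 0.620, so the design could show only large differences in them.

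**Figure D5:**
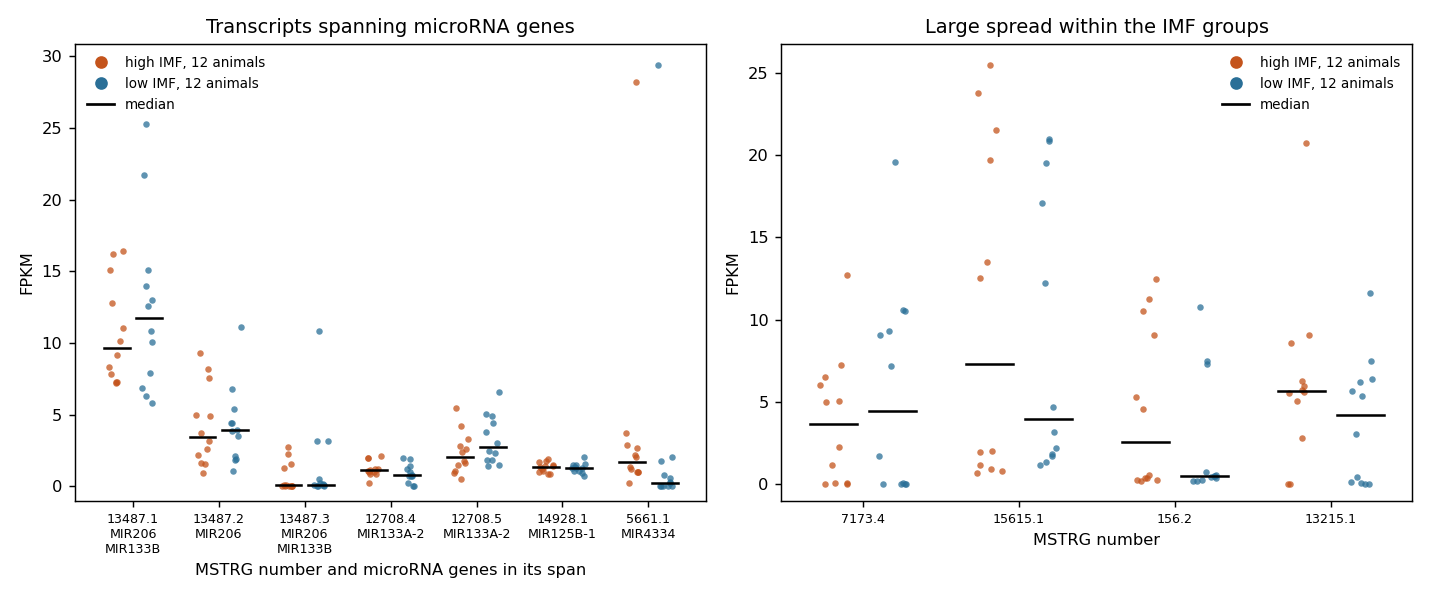
FPKM (linear axis) in each animal of the 7 transcripts that span microRNA genes (left, with the microRNA named under each) and of 4 with a large spread within IMF groups (right); orange is high and blue low IMF, and lines are group medians. On the right each transcript is near 0 or low in some animals and high in others of both groups, and on the left MSTRG.5661.1 is high in 1 animal of each group.

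Across the 24 animals, levels followed those of the nearest listed gene only loosely. The median Pearson's r was 0.18 over the 1066 transcripts with such a gene, and r was above 0.5 for 149 (14.0%). By distance the median was 0.16 for overlapping genes, 0.23 within 1000 bases, 0.21 from there to 10000 bases, 0.15 from there to 100000 bases and 0.06 farther away. The share above 0.5 was 23.05% within 1000 bases and 5.67% beyond 100000 bases. These are descriptions over transcripts that share the same libraries.

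The correlation was tested for the 63 named transcripts with such a neighbour, and 6 passed in both Pearson's and Spearman's correlation, all positive (permutation, adjusted over the 63). MSTRG.10304.1, a single exon of 4178 bases, lay 388 bases from VANGL1, a gene of planar cell polarity, with r = 0.77 and rho = 0.78 (adjusted p = 0.00063 and 0.00126), and 0.74 without the 2 animals farthest from the median. MSTRG.5355.1, opposite ITGB6, which encodes an integrin subunit, had r = 0.74 (adjusted p = 0.000315), and 0.64 without the 2 farthest. MSTRG.15999.1, one of the transcripts with the lower mean in high IMF, had r = 0.71 with RTL5, a gene derived from a retrotransposon and 21484 bases away (adjusted p = 0.00283), and 0.69 without the 2 farthest. RTL5 also had the lower mean in high IMF, at 0.403 ± 0.0955 against 0.572 ± 0.129 FPKM (SD, n = 12 each). This r pools both IMF groups, and the part of a shared group difference in it was not tested. MSTRG.4240.1, 170 bases from the Wnt receptor gene FZD10, had r = 0.63, and 0.48 and 0.90 within sets DLC1512 and DLC1601. MSTRG.11407.3, which overlapped the RefSeq span of WWOX, had r = 0.57 with the transcription factor gene MAF at 832340 bases. The sixth was MSTRG.15690.1 with the ribosomal row named above.

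No unannotated transcript had a gene of the adipocyte marker list as its nearest listed gene. The 5 closest to such genes lay 28569 to 168383 bases away: MSTRG.3449.1 from CIDEC, MSTRG.3477.1 from PPARG, MSTRG.12648.1 from CIDEA, MSTRG.6382.1 from ADIG and MSTRG.14743.1 from THRSP. MSTRG.12648.1, at 0.568 ± 0.445 FPKM in high and 0.27 ± 0.223 FPKM in low IMF (SD, n = 12 each), was under the mean needed for testing. Its highest value was 1.76 FPKM, in high IMF animal 3. The authors' deposited p for it was 0.129, with a fold of 0.892 (low over high). The other 4 had limma log2 fold changes of -0.13 to 0.22, with adjusted p of 0.833 to 0.963.

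The 3 transcripts on the Y chromosome were also found where a Y-linked gene was not. EIF1AY, which encodes a translation initiation factor, was at most 0.131 FPKM in 8 animals and 14.3 to 28.9 FPKM in 16. MSTRG.16329.1, with 7 exons at the RefSeq gene XG, was 1.96 to 4.26 FPKM in those 8 animals and 1.17 to 3.84 FPKM in the 16. MSTRG.16345.1 was 34.2 to 78.3 FPKM in the 8, within its range in the 16, which reached 202 FPKM, and MSTRG.16320.2 was above 0 in 7 of the 8. The levels of all 3 thus overlapped between animals with and without EIF1AY. MSTRG.3392.1, MSTRG.6579.1 and MSTRG.13996.1 ranked closest to EIF1AY among transcripts on other chromosomes, and no correlation is given because EIF1AY falls into separate clusters.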

How the data were processed

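The deposited table holds an FPKM value for each transcript in each animal. FPKM is an inference from the values and the length column, since the deposited file names no unit. Per the submitters' processing notes, HISAT2 2.0.5, StringTie 1.3.3 and Sscrofa11.1 were used, with roles not stated. The authors also deposited a fold change (a ratio, low over high IMF), p-values and 3 kinds of q-value, per the file headers.

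Transcripts with a mean of at least 0.5 FPKM over 24 libraries were tested on log2(FPKM + 1) by limma 3.58.1 (R 4.3.3; trended prior variance, robust moderation, two-sided), with Benjamini-Hochberg adjustment over all 21405. This scale understates the change of low transcripts. The script was tested on simulated data. Single values and correlations used permutation tests with 100000 resamples in Python 3.11.15 (numpy 2.4.6, scipy 1.17.1). Reads were not counted whole, so no count test was run. Depth was inferred from steps in FPKM times length; 72.9% to 84.1% of low values lay within 0.05 of a whole step, against 29.2% to 53.4% for the next best step, so depths are relative. The labels give no replicate numbers. Each animal is 1 replicate, although 3 pairs share 9 identifier digits, whose meaning the labels do not give.

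Members are named by rule: the 8 of smallest p per direction for IMF and 5 for identifier set, the 10 of highest FPKM, the 5 longest, the 5 with most exons, the 5 of largest spread (1 is not reported here), the 3 closest to EIF1AY in rank correlation and the 5 nearest adipocyte genes. Members and lists were chosen with earlier results of these data known. Those spanning or beside microRNA genes, those on the Y chromosome and the pairs of abundant transcripts were chosen after their values were seen. Distances are by start and end to listed genes with a symbol, regardless of strand. RefSeq gene spans are of the same build. No genome sequence was used, so no sequence is shown and shared sequence between members and other genes could not be examined.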

Additional observations from a re-analysis of the deposited data

How the results depend on the processing

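No unannotated transcript was called for IMF under any of 38 settings or for identifier set under any of 35; the smallest adjusted p over the settings was 0.0763 for IMF, without high IMF animal 3, and 0.489 for identifier set. The settings were other scalings, filters, pseudocounts, weights and terms, single identifier sets, sums per locus and leaving out each animal. The 16 transcripts named for IMF kept their sign in all 596 values. They were picked for small p in these same animals, and most settings refit all or nearly all of them. Kept signs were therefore likely from the start and give no support to the differences. Counts at an unadjusted p under 0.05 moved from 36 higher and 15 lower to 19 and 36 with TMM scaling, to 19 and 35 with upper-quartile scaling, and to 9 and 3 at a mean of at least 2 FPKM, which left 136 to test. Leaving out 1 animal gave 24 (without high IMF animal 7) to 52 (without low IMF animal 10) higher and 12 to 19 lower, and a median log2 fold change of 0.01 to 0.05. Leaving out 1 animal gave 0 called in each direction for both comparisons. With 1 animal per shared 9 identifier digits (21 animals) limma called 0 of all transcripts in place of 4. The difference in summed share, high minus low, was 0.034 percentage points in those animals and reversed from 0.129 to -0.012 percentage points in set DLC1601 alone (exact permutation p = 0.965); the cause was not tested. Overlap with listed genes fell from 241 to 142 when at least 0.5 of a transcript had to overlap and to 56 with any listed gene on the same strand (49 when only the gene of most overlap counts), and the median distance was 3519 bases in place of 1321 to reference transcripts alone. Depth limits the 90 transcripts under 0.5 FPKM, which were not tested, and the 655 between 0.5 and 1 FPKM.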
